A study of Arabidopsis thaliana with 9 samples.

Results

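The 6 genes described here are FT (AT1G65480), TSF (AT4G20370), TFL1 (AT5G03840), BFT (AT5G62040), ATC (AT2G27550) and MFT (AT1G18100) of Arabidopsis thaliana. They were chosen by locus, and all 6 were found among 27444 nuclear protein-coding genes. For each gene, the share of the gene body and of the 5 kb on either side that lay under peaks was measured, with the nearest peak and its distance. The peaks were those of H3K27me3 and H3K27me1, the trimethylated and monomethylated forms of the same histone H3 lysine, in sperm chromatin of plants carrying the htr10 mutation. The nuclei were sorted by FACS after SYBR Green I staining, and mononucleosomes released with micrococcal nuclease were immunoprecipitated. The groups were 3 H3K27me3 immunoprecipitations, 3 H3K27me1 immunoprecipitations and 3 inputs of digested chromatin, all of genotype htr10. The labels give the ecotype as Col-0 for 5 samples and as Col-1, Col-2, Col-3 and Col-4 for 1 sample each. Beyond the first 5 samples these numbers rise by 1 from sample to sample and may be a labelling slip, so they are not read as different accessions. HTR10, the mutated gene, codes for an H3 histone made in sperm. Plants with an intact HTR10 were not analysed here, so nothing below measures what the mutation changed. HTR10 itself had 0% of its body under peaks of either mark. A peak list cannot show whether that gene was disrupted.

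The 6 genes encode small proteins of the phosphatidylethanolamine-binding family. FT is the florigen: it is made in the leaf under inductive day length, moves to the shoot apex and there acts with the bZIP protein FD to start flowering, and TSF is its closest relative with the same role. TFL1 binds the same partner and holds flowering back, keeping the shoot tip indeterminate, and ATC and BFT are floral repressors of the same kind. MFT acts in the seed, where it takes part in the control of germination. In leaves and seedlings FT is a well-known target of Polycomb, the system that writes H3K27me3 and keeps genes silent. H3K27me1 is best known from silent heterochromatin.

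For each mark there was a broad list, which joins nearby enrichment into domains, and a narrow list of sharper peaks. Each list is 1 set of peaks for the mark, with no value per sample. No spread between samples could therefore be computed for any value below, no test was made, and the sequencing depth is unknown. Each peak carries the authors' values of fold enrichment, relative to background, and of −log10 q, which were used only to describe and rank peaks within a list. Lower and higher side mean the side with lower or higher chromosome coordinates, since the gene table gives no strand. Distances run from gene edge to peak edge, with 1 bp for a directly adjacent peak. All 6 genes lay in chromosome arms, from 4.77 Mb (ATC) to 8.92 Mb (BFT) outside the pericentromere windows of their chromosomes.

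At these loci most covered bases lay in the flanks, with 525 of 10734 H3K27me3 bases and 0 of 9261 H3K27me1 bases in the genes themselves. The genes themselves made up 16.4% of the 71774 bp examined, so most of the sequence was flank. How covered bases divide between bodies and flanks over all genes was not counted. An H3K27me3 broad peak reached into the body of 2 of the 6 genes, TFL1 and TSF, where 26.0% of all protein-coding genes had at least 1 base covered. H3K27me1 reached into 0 of the 6, against 22.7% of all genes. Neither TFL1 nor TSF kept a covered body base when only H3K27me3 peaks with a −log10 q of 2 or more were used, a selection under which 19.5% of all genes had one. At least 50% of the body was covered in 0 of 6 genes for H3K27me3 (all genes 5.67%) and in 0 of 6 for H3K27me1 (all genes 5.49%). With the 5 kb flanks included, H3K27me3 touched 6 of 6 genes and H3K27me1 touched 5 of 6, all but BFT. That is also common among all genes, at 80.6% for H3K27me3 and 73.9% for H3K27me1. The median share of gene body and flanks under H3K27me3 was 12.9% for the 6 genes and 11.1% for all genes. For H3K27me1 the medians were 13.5% for the 6 genes and 8.77% for all genes. The means went the other way, at 14.7% for the 6 genes and 15.3% for all genes for H3K27me3. For H3K27me1 they were 12.4% and 14.1%.

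**Figure D1:**
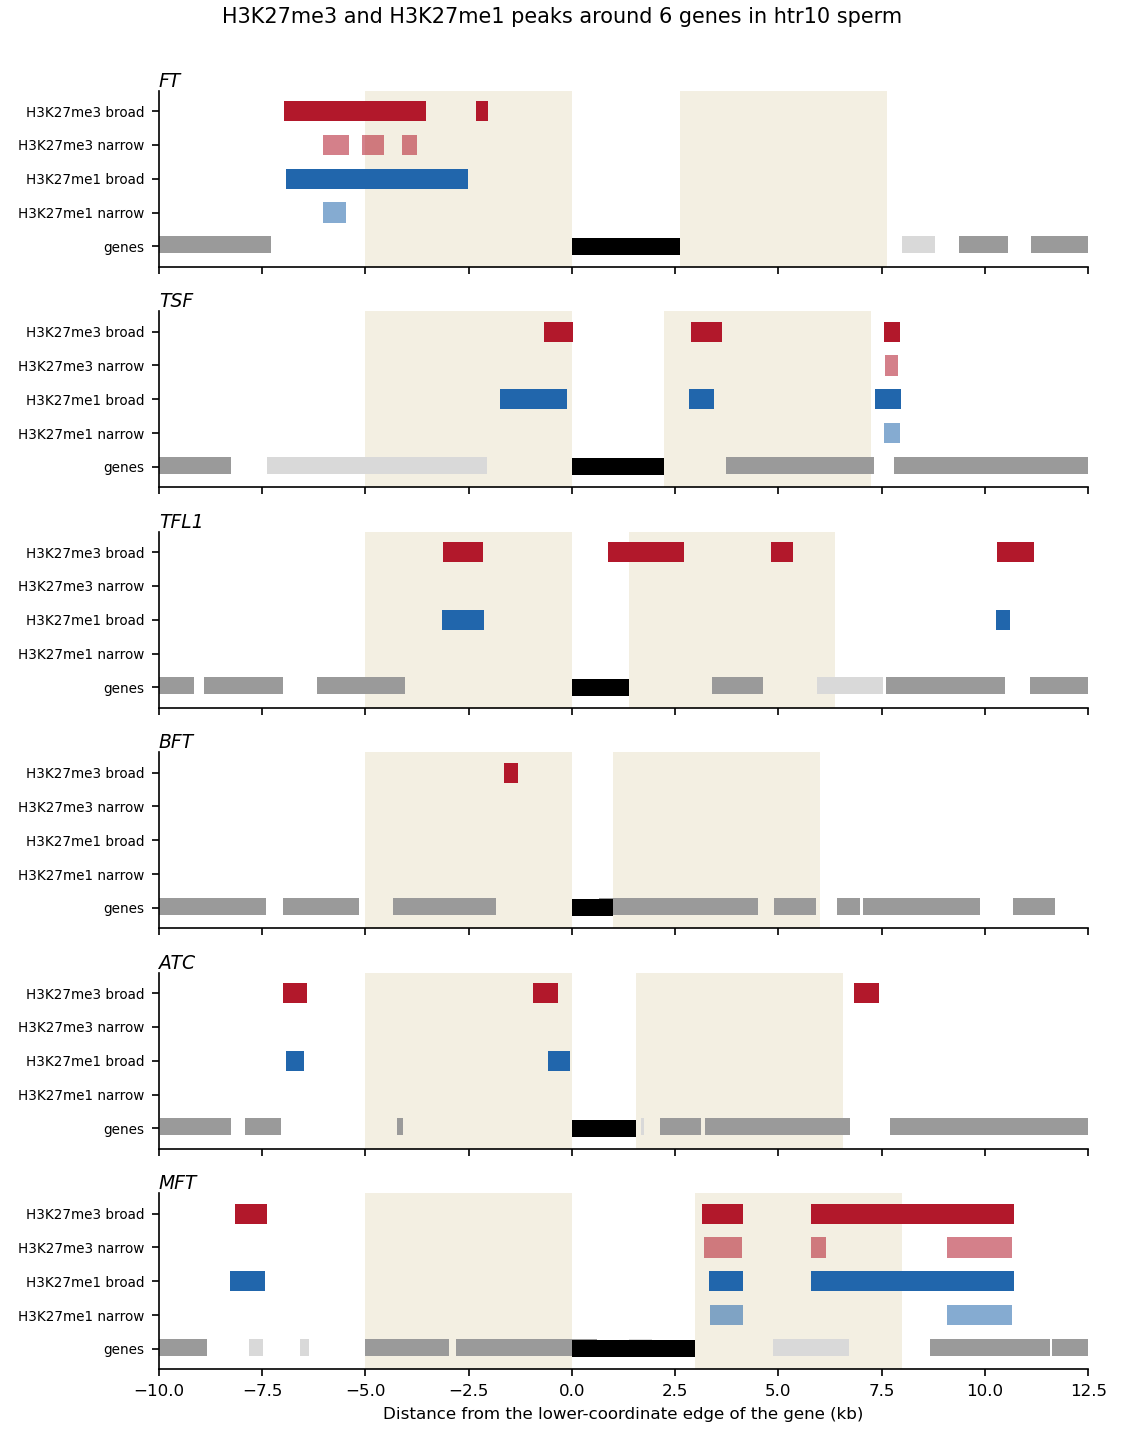
Map of the 6 loci, with distance from the lower-coordinate edge of each gene in kb on the horizontal axis. Rows show broad (dark) and narrow (pale) peaks of H3K27me3 (red) and H3K27me1 (blue), black bars the named gene, dark grey bars other protein-coding genes, light grey bars other annotated genes and shaded areas the 5 kb flanks. Most peaks sit beside the genes, and an H3K27me3 peak overlaps the gene by 505 bp at TFL1 and by 20 bp at TSF.

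FT had 0% of its body under peaks of either mark, and its peaks all lay on the lower side. There H3K27me3 covered 35.3% of the 5 kb and H3K27me1 covered 49.6%, while the 5 kb on the higher side had 0% of both. The 7281 bp between FT and its lower-side neighbour FAS1, a subunit of the chromatin assembly factor that deposits histones H3 and H4, hold no annotated gene. Only 1.32% of the gaps between annotated genes in the genome are as wide or wider.

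The main H3K27me3 domain of this gap spanned bases 24324414 to 24327834 of chromosome 1 (build TAIR10, fold enrichment 1.72, −log10 q 3.15). A second, weak H3K27me3 peak of 303 bp lay nearer to FT, at 2022 bp (fold enrichment 1.41, −log10 q 1.26). H3K27me1 formed a single domain over bases 24324458 to 24328853 (fold enrichment 1.55, −log10 q 2.52), which ended 2520 bp before the gene. The outer edges of both domains thus lay close together, and the H3K27me1 domain extended farther towards FT than the main H3K27me3 domain.

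The narrow lists resolved this region into sharper peaks, and here the marks differed. H3K27me3 had 3 narrow peaks in the gap, of which the strongest ran from 24325338 to 24325986 (fold enrichment 2.41, −log10 q 8.90) and lay 5387 bp from FT, just beyond the 5 kb. The other two lay 4545 and 3739 bp from the gene, with folds of 1.92 and 1.86. H3K27me1 had 1 narrow peak, from 24325341 to 24325909 (fold enrichment 1.95, −log10 q 6.61), and its summit was 95 bp from that of the strongest H3K27me3 peak. FT is known to have an enhancer several kb before its start, called Block C. Its position is not in the sources used here, so overlap with these peaks was not measured.

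TSF, the relative of FT, had peaks close to both of its ends. On the lower side H3K27me3 covered 13.7% and H3K27me1 covered 32.6% of the 5 kb, and on the higher side 15.0% and 11.7%. The lower-side H3K27me3 peak, at bases 11000087 to 11000790 of chromosome 4 (fold enrichment 1.42, −log10 q 1.59), overlapped the gene by 20 bp, or 0.893% of its length. The H3K27me1 peak on that side ran from 10999019 to 11000649 (fold enrichment 1.44, −log10 q 2.32) and stopped 122 bp before the gene. On the higher side the peaks began 637 bp (H3K27me3) and 607 bp (H3K27me1) from the gene, in the 1492 bp between TSF and LSD1, a regulator of plant cell death.

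No narrow peak lay within 5 kb of TSF. The nearest ones of both marks lay 5335 bp (H3K27me3) and 5312 bp (H3K27me1) away on the higher side. They reached into JMJ14, which encodes a histone H3K4 demethylase. Their folds were 2.14 for H3K27me3 and 2.30 for H3K27me1, and their summits were 26 bp apart.

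TFL1, the floral repressor, was the most covered of the 6 genes under H3K27me3. The mark covered 36.8% of the gene body, as 505 bp at the higher-coordinate end, and H3K27me1 covered 0%. Among all protein-coding genes, 7.20% had at least that share of the body under H3K27me3. A gene body with H3K27me3 and no H3K27me1, as in TFL1 and TSF, was found in 8.54% of all genes.

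The peak over the end of TFL1 spanned bases 1025368 to 1027218 of chromosome 5, reaching 1346 bp past the gene. Its fold enrichment of 1.50 and −log10 q of 1.52 were low for the list, in which 13.0% of peaks had a lower fold. No base of it lay under H3K27me1. A further H3K27me3 peak without H3K27me1 lay 3435 bp away on the higher side (fold 1.52). On the lower side both marks had a peak of nearly the same extent, from 1021377 to 1022356 for H3K27me3 (fold 1.56) and from 1021355 to 1022368 for H3K27me1 (fold 1.46). Over gene body and flanks, H3K27me3 covered 29.8% and H3K27me1 covered 8.92% at TFL1. Neither mark had a narrow peak nearer than 11212 bp (H3K27me3) and 11409 bp (H3K27me1).

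BFT, the shortest of the 6 genes at 996 bp, had the least coverage. A single H3K27me3 peak of 334 bp lay 1307 bp away on the lower side, at bases 24921162 to 24921495 of chromosome 5 (fold enrichment 1.55, −log10 q 1.54). It made up 3.04% of gene and flanks, and 75.8% of all genes had at least as much. H3K27me1 had no base there, and its nearest broad peak was 13491 bp away. Neighbouring protein-coding genes took up 63.7% of gene and flanks at BFT, the highest share of the 6, and OXA1, which encodes a mitochondrial membrane insertase, overlapped BFT itself by 333 bp.

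ATC had 1 peak of each mark, side by side before its lower edge. The H3K27me3 peak spanned bases 11772248 to 11772855 of chromosome 2 (fold enrichment 1.56, −log10 q 1.85) and ended 332 bp from the gene. The H3K27me1 peak, from 11772617 to 11773137 (fold enrichment 1.41, −log10 q 1.32), ended 50 bp from it. They shared 239 bp, so H3K27me1 was the nearer mark at this gene. The H3K27me3 peak made up 5.26% of gene and flanks and the H3K27me1 peak 4.51%. The nearest narrow peaks were 17435 bp (H3K27me3) and 31759 bp (H3K27me1) away.

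MFT, the seed gene, had the broad peak of highest fold for each mark among the 6 genes. Its peaks within 5 kb all lay on the higher side. There H3K27me3 covered 63.7% and H3K27me1 covered 60.5% of the 5 kb, while the gene body and the lower side had 0% of both. The first pair of peaks lay 169 bp (H3K27me3) and 334 bp (H3K27me1) from the gene. It spanned bases 6230363 to 6231350 of chromosome 1 for H3K27me3 (fold enrichment 1.68, −log10 q 3.20) and from 6230528 to 6231356 for H3K27me1 (fold enrichment 1.77, −log10 q 5.69).

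A second, wide pair began at the same base, 6232997, and ended at 6237908 for H3K27me3 and 6237916 for H3K27me1, beyond the 5 kb. Its folds of 1.92 (H3K27me3) and 1.88 (H3K27me1) were among the highest of their lists, with 92.0% and 94.1% of peaks lower. This domain overlapped the pseudogene AT1G18120 and the protein-coding gene AT1G18130. Its narrow peaks over AT1G18130, 6103 bp (H3K27me3) and 6095 bp (H3K27me1) from MFT, had folds of 4.17 and 3.87, with 99.6% and 99.1% of their lists lower. Their summits were 9 bp apart.

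MFT was also the only one of the 6 genes with narrow peaks of both marks within 5 kb. The narrow peaks nearest to the gene began at 229 bp for H3K27me3 (fold 1.93) and at 365 bp for H3K27me1 (fold 2.41). Although the peaks overlapped by 773 bp, their summits, at 6230711 and 6231175, were 464 bp apart, with that of H3K27me3 nearer to the gene. A second narrow H3K27me3 peak at 2810 bp (fold 1.99) had no narrow H3K27me1 counterpart, though it lay inside the wide H3K27me1 broad peak.

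**Figure D2:**
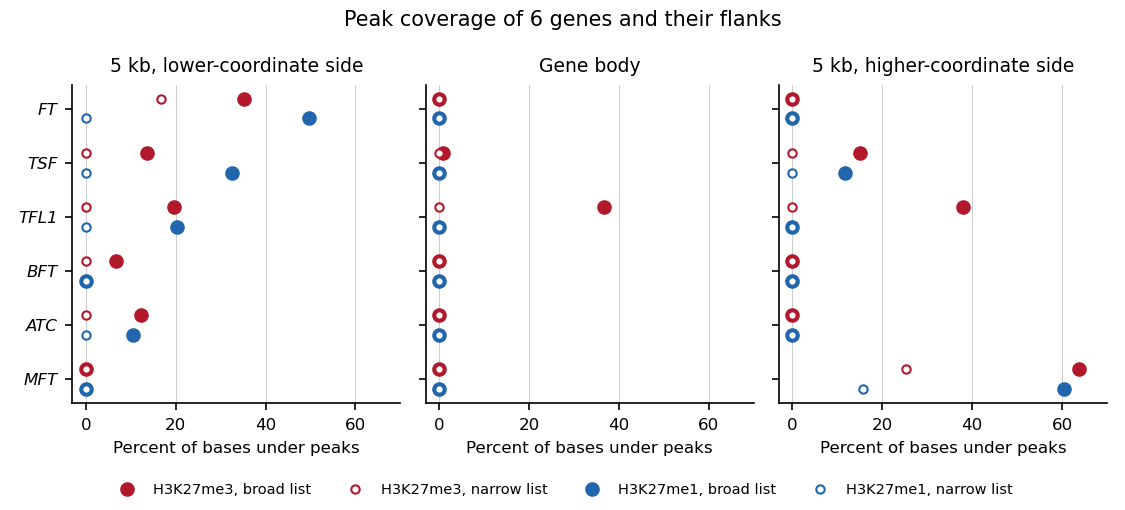
Percent of bases under peaks (horizontal axes) in the 5 kb on the lower-coordinate side, the gene body and the 5 kb on the higher-coordinate side of each gene (rows). Filled points are broad and open points narrow lists, with H3K27me3 in red above H3K27me1 in blue, and each point is 1 value of a list with no replicates. The gene body of TFL1 stands at 36.8% for H3K27me3, and the highest flank values are 63.7% and 60.5% on the higher side of MFT.

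Relative coverage by the marks differed from gene to gene. In gene and flanks H3K27me3 covered more bases than H3K27me1 at 4 of the 6 genes (TFL1, BFT, ATC and MFT) and fewer at 2 (FT and TSF). Among all genes H3K27me3 covered more in 50.4% and H3K27me1 more in 33.6%. At TSF, H3K27me3 covered 11.9% and H3K27me1 18.1% of gene and flanks, and at FT 14.0% and 19.6%. At FT this order turned in the narrow lists, where H3K27me3 covered 6.64% and H3K27me1 0%. The nearest narrow H3K27me1 peak lay 5464 bp from FT, just beyond the 5 kb, and so did not count. At MFT the shares were 24.5% for H3K27me3 and 23.3% for H3K27me1, and with peaks of a −log10 q of 5 or more the difference turned to −6.39 percentage points. Each mark has its own lists of peaks, how they were called is not fully given and the depth is unknown. A difference in covered bases therefore need not be a difference in the marks.

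Over all 6 loci H3K27me3 covered 10734 bp and H3K27me1 covered 9261 bp, of which 6822 bp were shared. The shared bases were 63.6% of the H3K27me3 and 73.7% of the H3K27me1 bases, against 77.3% and 76.8% over the whole lists. The share varied widely among the genes. At MFT 94.8% of H3K27me3 bases also lay under H3K27me1, at FT 82.8%, at TSF 76.9%, at ATC 39.3%, at TFL1 29.0% and at BFT 0%. In the other direction the order differed: 99.8% of H3K27me1 bases lay under H3K27me3 at MFT, 96.6% at TFL1, 58.9% at FT, 50.5% at TSF and 45.9% at ATC, and BFT had no H3K27me1 base. All 7 H3K27me1 broad peaks at these loci overlapped H3K27me3, and 7 of the 11 H3K27me3 broad peaks overlapped H3K27me1. The share of peaks doing so over the whole lists was not counted, so neither number is read as unusual.

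None of the covered bases within the 5 kb limit lay in a neighbouring protein-coding gene. Such genes made up 30.7% of the 71774 bp examined, and 0 of the 10734 H3K27me3 bases and 0 of the 9261 H3K27me1 bases fell in them. This depends on the limit. Beyond it the wide MFT pair ran on into AT1G18130, with 41.0% (H3K27me3) and 41.1% (H3K27me1) of the whole peak in protein-coding genes. Sequence without any annotated gene held 86.4% of the H3K27me3 and 90.0% of the H3K27me1 bases, and made up 45.5% of the loci. The remaining bases were the 525 bp of H3K27me3 in TFL1 and TSF and, for each mark, 930 bp in the pseudogene next to MFT. Over the whole lists, 76.8% of the bases of either mark lay outside annotated genes, and such sequence made up 35.9% of the chromosomes. Protein-coding genes held 18.7% of the H3K27me3 and 17.3% of the H3K27me1 bases of the whole lists, and made up 54.1% of the chromosomes. These shares count every protein-coding gene, whereas the 30.7% leaves out the 6 genes themselves. The 6 genes made up a further 16.4% of the loci and held 4.89% of the H3K27me3 and 0% of the H3K27me1 bases. FT, with no other gene in the 5 kb on either side, had covered bases on 1 side only.

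Most of these peaks ranked low in their lists. Of the 11 H3K27me3 broad peaks, 3 had a fold at or above the list median of 1.64, namely the main FT domain and the MFT pair, and 1 had a −log10 q of at least 5, which 12.4% of the list reached. Of the 7 H3K27me1 broad peaks, 2 had a fold at or above the list median of 1.57, both at MFT. The same 2 had a −log10 q of at least 5, which 19.6% of that list reached. The median fold at the 6 loci was 1.55 for H3K27me3 and 1.51 for H3K27me1. All peaks at TSF, TFL1, BFT and ATC had folds below the list medians. In the narrow lists 0 of the 4 H3K27me3 peaks, at FT and MFT, reached the list median fold of 2.07. The 1 narrow H3K27me1 peak, at MFT, had a fold of 2.41 against a list median of 1.94.

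**Figure D3:**
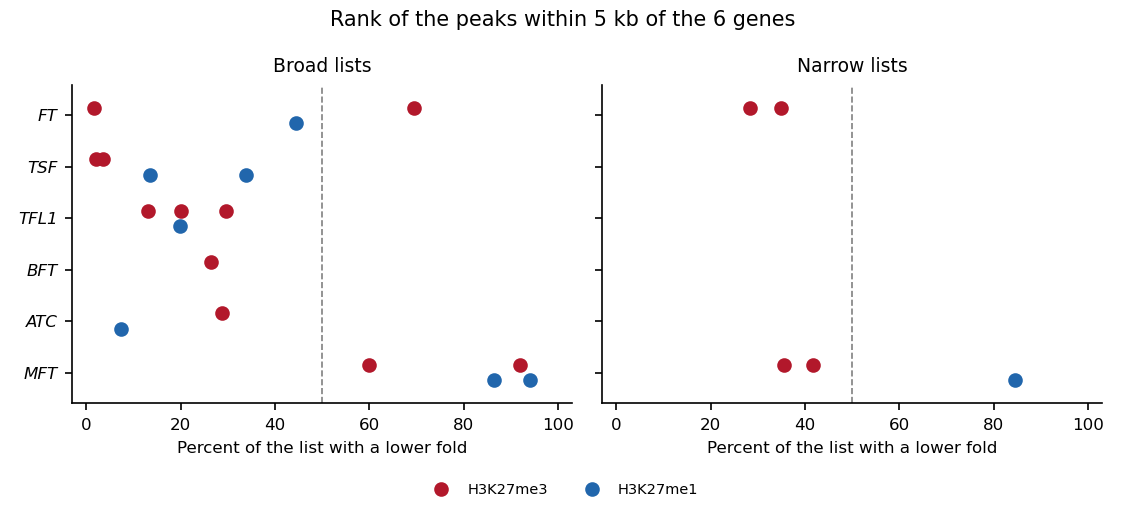
Percent of peaks of the same list with a lower fold enrichment (horizontal axes) for each peak that touches a gene or its 5 kb flanks (rows), in the broad (left) and narrow (right) lists. Red points are H3K27me3 and blue points H3K27me1, and the dashed line marks the middle of each list. In the broad lists the MFT peaks stand at 60.0% and 92.0% for H3K27me3 and at 86.4% and 94.1% for H3K27me1, and the FT domain of H3K27me3 at 69.5%. In the narrow lists the MFT peaks stand at 35.6% and 41.7% for H3K27me3 and at 84.5% for H3K27me1.

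Distances to the nearest broad peak set the genes in different orders for the marks. For H3K27me3 the order was TFL1 and TSF (0 bp, overlapping), MFT (169 bp), ATC (332 bp), BFT (1307 bp) and FT (2022 bp). For H3K27me1 it was ATC (50 bp), TSF (122 bp), MFT (334 bp), TFL1 (2132 bp), FT (2520 bp) and BFT (13491 bp). The medians of the 6 genes were 250 bp for H3K27me3 and 1233 bp for H3K27me1, against 593 and 1201 bp over all genes. In the narrow lists only MFT had its nearest peak within 1 kb, and a narrow peak lay within 5 kb of 2 of the 6 genes for H3K27me3 (FT and MFT, all genes 51.0% with gene body included) and of 1 for H3K27me1 (MFT, all genes 47.3%). No narrow peak reached into any of the 6 gene bodies, against 8.25% of all genes for H3K27me3 and 8.50% for H3K27me1.

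**Figure D4:**
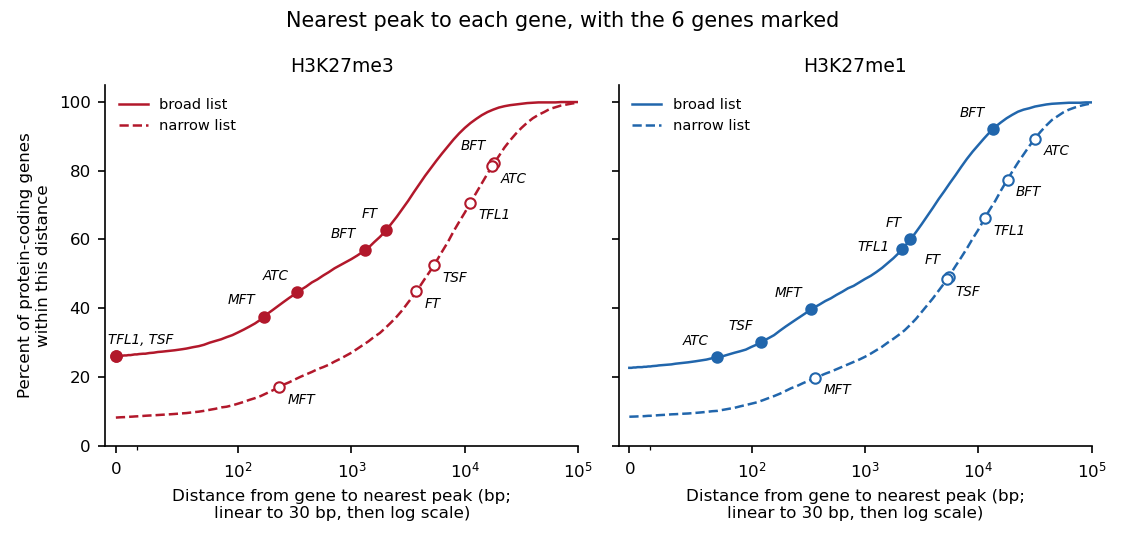
Percent of all 27444 protein-coding genes (vertical axis) whose nearest peak lies within the distance on the horizontal axis (bp, linear to 30 bp and logarithmic beyond), for H3K27me3 (left) and H3K27me1 (right). Solid lines and filled points are broad lists, dashed lines and open points narrow lists, and points mark the 6 genes. BFT is the gene farthest from a broad H3K27me1 peak, at 13491 bp, a distance within which 92.0% of all genes have one.

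In 17 other genes of the florigen pathway, H3K27me3 reached into 4 of 17 bodies (all genes 26.0%) and H3K27me1 into 3 of 17 (all genes 22.7%), which is near the share over all genes. At least 50% of the body was covered in 0 of 17 for H3K27me3 (all genes 5.67%) and in 0 of 17 for H3K27me1 (all genes 5.49%). Among the 9 regulators of FT, 4 had a body covered by at least 1 of the marks, namely TEM1, SNZ, TOE1 and SVP. Among all genes, 68.8% had neither mark in the body. The repressors TEM2, SMZ and FLC, named after their values were seen, had 0% of the gene body under either mark. H3K27me3 did cover bases in the 5 kb flanks of each. TEM1, a repressor of FT, had 16.1% of its body under H3K27me3 and 0% under H3K27me1, and TOE1, an AP2-like repressor, 6.43% and 0%. SNZ, another AP2-like repressor, had 40.0% under H3K27me3 and 39.6% under H3K27me1. SVP, a MADS-box partner of FLC, had 0% under H3K27me3 and 9.52% under H3K27me1.

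Of the 3 partners, FD, FDP and the FT transport protein FTIP1, 0 had a covered body under either mark (all genes with neither, 68.8%). Of the 5 targets only LFY, which gives flower identity to new meristems, had one, with 23.5% under H3K27me3 and 21.0% under H3K27me1. Body or 5 kb flanks were touched by H3K27me3 in 15 of the 17 genes (all genes 80.6%) and by H3K27me1 in 12 (all genes 73.9%), again near the share over all genes. SOC1, the target that integrates flowering signals, was touched by neither and had its nearest broad peaks at 7628 bp (H3K27me3) and 7648 bp (H3K27me1). It was singled out after its values were seen. In the FLC and MAF genes, which encode MADS-box repressors of flowering, bodies were reached by H3K27me3 in 4 of 6 (all genes 26.0%) and by H3K27me1 in 2 of 6 (all genes 22.7%). MAF2, MAF3, MAF4 and MAF5 are neighbours on chromosome 5, so these counts are not independent, and the difference from the family of FT was not tested. The bodies of MAF3 and MAF4 were reached by the same H3K27me3 peak (fold 1.46). FLC is also among the 17 pathway genes.

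Genes with a similar pattern were sought for the 2 members with a covered body. The measure was the mean absolute difference over 8 values, the percent of gene body and of both flanks in the 4 lists. Closest to TSF were SUS6 (AT1G73370), a sucrose synthase, at 0.207 percentage points, and AT3G58720 at 0.257. Closest to TFL1 were GGP1 (AT4G30530) at 0.788 and AT5G64400 at 0.818 percentage points. GGP1 had 34.1% of its body under H3K27me3 and 0% under H3K27me1, against 36.8% and 0% for TFL1. This likeness follows from the choice, since genes were picked by these same values. The narrow-list values of TSF and TFL1 were all 0, which many genes share, and how common such small differences are was not counted.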

How the data were processed

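The labels' protocols describe 50 bp paired-end sequencing of immunoprecipitated mononucleosomes. The tools in the submitters' processing notes, listed without their roles, are MACS2 2.1.0, deepTools 2.5.0.1, bedtools, Picard, SAMtools 1.3, Bowtie2 2.1.0 and Trim Galore 0.4.1, and TAIR10 is the build given there. How samples and inputs entered peak calling, and how multiply mapping reads were handled, are not given in the sources used here. From the column layout, the authors deposited for each peak a fold enrichment (a ratio) and a −log10 q-value, and for narrow peaks the summit position. Depth per sample is unknown.

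Genes were matched by locus to a table on TAIR10.1 that holds 38312 genes with their intervals. Since the files use TAIR10, no gene coordinate is printed. Shared numbering was checked by sliding narrow peaks against protein-coding genes in 100 bp steps to 3000 bp either way: overlap was lowest at 0 bp in 10 of 10 combinations of mark and chromosome. Peaks within a list were merged and bases counted with Python 3.11.15, numpy 2.4.6 and pandas 2.3.3, in code tested on simulated intervals. Peak positions are counted from 1. Pericentromere windows were 12 to 18, 1 to 7, 11 to 17, 2 to 6 and 9 to 16 Mb on chromosomes 1 to 5.

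All 6 genes are named, and of the pathway list those with at least 1 covered body base under a broad peak. Outside this rule TEM2, SMZ, FLC, FD, FDP, FTIP1 and SOC1, which had no covered body base, are named too. For each member with a covered body, the 2 genes of most similar pattern are named. The members and lists were chosen with earlier results of these data known. Alternatives were narrow lists, −log10 q of at least 2 or 5, the 50% of broad peaks with the highest fold, an overlap of 100 bp, flanks of 1 or 2 kb and a coverage threshold of 25%.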

Additional observations from a re-analysis of the deposited data

How the results depend on the processing

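The 2 genes with a body covered by H3K27me3 became 0 under each stricter selection of peaks. The share of all genes with one was lower too, at 8.25% with the narrow list, 19.5% and 3.28% at a minimum −log10 q of 2 and of 5, and 14.9% with the 50% of highest fold, against 26.0% with the broad list. When at least 100 bp had to overlap, 1 gene (TFL1) was left. When only peaks were changed, 0 genes were covered over at least 50% for either mark, as in the main lists. At a coverage threshold of 25% in place of 50%, H3K27me3 counted 1 gene, TFL1, in place of 0. Shares of all genes at 100 bp and at 25% were not counted. Genes touched in body or 5 kb flanks numbered 6 for H3K27me3 and 5 for H3K27me1. They became 2 and 1 with the narrow lists, 2 and 3 at a minimum −log10 q of 2, 1 and 1 at a minimum of 5 (MFT for both marks), and 2 and 1 with the 50% of highest fold. The shares of all genes under these selections were 51.0% and 47.3%, 66.0% and 62.1%, 13.8% and 17.9%, and 53.9% and 46.1%. Flanks of 1 kb left 4 genes for H3K27me3 and 3 for H3K27me1, where 54.3% and 48.5% of all genes had a broad peak within 1000 bp. Flanks of 2 kb left 5 and 3 genes, where 62.4% and 56.1% of all genes had one within 1995 bp. The sign of H3K27me3 minus H3K27me1 in percent of gene and flanks, an alternative added after the data were seen, did not hold under every selection at any of the 6 genes. At FT it was −5.67 percentage points with the broad lists, but 6.64 with the narrow lists and 11.6 with the 50% of highest fold. The nearest narrow H3K27me1 peak to FT lay just beyond the 5 kb. At MFT the difference was 1.23, but −6.39 at a minimum −log10 q of 5. At TFL1 (20.8), BFT (3.04) and ATC (0.753) it was 0 under all 4 selections, which left no covered base of either mark. At TSF it was −6.23 with the broad lists, −18.1 at a minimum −log10 q of 2 and 0 under the other 3. The stricter selections keep fewer peaks, and equal cutoffs need not be equally strict for both marks. No paired analysis was possible because the lists hold no value per sample, and for the same reason no replicate could be left out. Depth per sample is unknown, so an interval without a peak does not show absence of the mark.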
